A study of Mus musculus with 4 samples.

Results

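Enzymes that modify or conjugate foreign compounds were followed through the epithelium of the mouse colon, as the members of 11 gene families: Cyp2c, Ces1, Ces2, Aldh1a, Akr1c, Gsta, Gstm, Gstp, Ugt1a, Ugt2b and Sult1. The members were all genes whose symbols carry these family names, pseudogenes left out, which gave 79 of the 32285 genes counted. Of these, 73 had at least 1 UMI (a counted transcript molecule) in epithelial cells and 54 had at least 10 UMIs in both batches. Cells came from the colon of C57/BL6J mice in 4 conditions: JUP-KO with DSS (dextran sulfate sodium, which injures the colon lining), untreated JUP-KO, wild type with DSS, and untreated wild type. In each of 2 batches the conditions were marked with 1 antibody hashtag each, mixed, sorted for viable cells and loaded together for droplet sequencing of transcript 3′ ends. The tags are named TG_DSS, TG_WT, Ctrl_DSS and Ctrl_WT, and nothing in the sources used here ties a tag name to an antibody number. By name, TG_WT is untreated JUP-KO and Ctrl_DSS is wild type with DSS. By the order of the antibody numbers these change places, while TG_DSS (JUP-KO with DSS) and Ctrl_WT (untreated wild type) are the same in both readings. Groups are therefore called by their tag names. How Jup was deleted, the dose and time of DSS, the ages and sexes of the mice and whether the batches came from separate mice are not stated in the labels. All p-values therefore measure the spread between the samples at hand, some of which may be technical.

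Detoxification is usually described in phases. Phase 1 enzymes such as cytochromes P450, carboxylesterases, aldehyde dehydrogenases and aldo-keto reductases add or uncover a reactive group, and phase 2 enzymes join that group to glutathione, glucuronic acid or sulfate so that the product can be exported. In the colon these enzymes stand between the contents of the gut and the blood, and they also handle the body's own steroids, retinoids and lipids. Colon epithelium is renewed from stem cells at the crypt base, whose offspring divide, move up the crypt and reach the surface as absorptive colonocytes, with goblet, enteroendocrine and tuft cells among them.

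Cells were sorted into gates by lists of marker genes, none of which is a member. From crypt to surface these were crypt base (388 and 120 cells in batches 1 and 2), cycling (728 and 169), transitional (675 and 255), colonocyte (834 and 508) and surface (1029 and 1028), beside goblet (798 and 534), enteroendocrine (160 and 98) and tuft (69 and 38). The gates were checked on their lists. The crypt base list (Lgr5, Ascl2 and others) had a median of 0 UMIs per 10000 in surface cells of both batches, against 14.7 and 14.2 in crypt base cells. The surface list (Krt20, Aqp8 and others) had medians of 310.1 and 334 in surface cells, against 9.77 and 10.7 in crypt base cells. The gates are ranges of a continuous score: of 5734 cells in the gates from crypt base to surface, 734 lay within 20% of the surface limit. Median depth per cell was 13044 and 13987 UMIs in the surface gate and 15447 and 17789 in the crypt base gate. Levels are in CPM, the counts of a gate scaled to a total of 1000000 UMIs, given for batch 1 and then batch 2. Neutrophils, which should lack these enzymes, had 169.8 and 146 CPM over all members together, a measure of free RNA in the droplets. The batches shared 14 barcodes among kept cells, 4 of them epithelial.

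Sequence upstream of the genes is shown first for members that later stand at the ends of the crypt-to-surface comparison. RefSeq promoters (GRCm38.p6, from 250 bases before to 50 after the start of transcription) were found for 70 of the 79 members, 79 promoters in all, since some genes have several starts. Cyp2c55, Ces2c and Sult1b1 were far higher at the surface, Cyp2c65 and Cyp2c68 are other Cyp2c genes with peaks below the surface, and Gsta3 and Gstm1 were far lower at the surface. Capitals mark motifs found by letter search on both strands: the HNF4 motif AAAGTCCA, the antioxidant response element TGACNNNGC and the xenobiotic response element GCGTG. The motifs were chosen after promoters of members had been seen.
Cyp2c55, chr19:39006769-39007068, plus strand: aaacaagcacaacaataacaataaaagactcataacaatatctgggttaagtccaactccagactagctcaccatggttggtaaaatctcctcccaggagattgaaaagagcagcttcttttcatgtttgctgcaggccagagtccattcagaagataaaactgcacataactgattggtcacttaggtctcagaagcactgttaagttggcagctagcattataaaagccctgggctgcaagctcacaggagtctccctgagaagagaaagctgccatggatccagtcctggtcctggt
Cyp2c65, chr19:39060756-39061055, plus strand: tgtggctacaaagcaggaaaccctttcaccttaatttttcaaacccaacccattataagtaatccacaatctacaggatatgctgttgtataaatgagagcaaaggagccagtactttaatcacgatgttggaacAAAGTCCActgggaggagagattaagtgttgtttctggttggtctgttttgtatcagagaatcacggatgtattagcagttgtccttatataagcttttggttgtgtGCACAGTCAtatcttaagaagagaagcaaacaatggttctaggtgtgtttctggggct
Cyp2c68, chr19:39741052-39741351, minus strand: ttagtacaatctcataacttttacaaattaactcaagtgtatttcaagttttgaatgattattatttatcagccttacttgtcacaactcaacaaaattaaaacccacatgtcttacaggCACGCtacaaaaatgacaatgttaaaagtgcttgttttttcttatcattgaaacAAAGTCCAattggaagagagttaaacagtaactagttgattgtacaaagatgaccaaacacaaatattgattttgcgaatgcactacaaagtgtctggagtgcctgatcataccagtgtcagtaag
Sult1b1, chr5:87538146-87538445, minus strand: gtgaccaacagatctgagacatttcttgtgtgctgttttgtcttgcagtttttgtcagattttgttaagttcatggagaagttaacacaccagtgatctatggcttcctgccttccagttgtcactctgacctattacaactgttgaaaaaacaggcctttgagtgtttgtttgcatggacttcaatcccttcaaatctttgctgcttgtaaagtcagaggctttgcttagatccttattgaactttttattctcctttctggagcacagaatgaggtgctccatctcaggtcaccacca
Sult1b1, chr5:87536173-87536472, minus strand: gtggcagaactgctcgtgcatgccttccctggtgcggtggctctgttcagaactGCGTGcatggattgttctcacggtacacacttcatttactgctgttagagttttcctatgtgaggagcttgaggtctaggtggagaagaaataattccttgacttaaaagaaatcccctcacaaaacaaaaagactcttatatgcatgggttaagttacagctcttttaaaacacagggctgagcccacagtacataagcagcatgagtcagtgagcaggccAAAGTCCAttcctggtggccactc
Ces2c, chr8:104846818-104847117, plus strand: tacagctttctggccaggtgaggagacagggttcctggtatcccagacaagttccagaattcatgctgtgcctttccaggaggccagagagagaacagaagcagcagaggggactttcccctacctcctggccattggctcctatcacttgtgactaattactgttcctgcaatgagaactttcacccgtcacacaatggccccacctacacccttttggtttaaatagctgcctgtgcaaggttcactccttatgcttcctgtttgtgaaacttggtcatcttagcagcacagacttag
Gsta3, chr1:21240335-21240634, plus strand: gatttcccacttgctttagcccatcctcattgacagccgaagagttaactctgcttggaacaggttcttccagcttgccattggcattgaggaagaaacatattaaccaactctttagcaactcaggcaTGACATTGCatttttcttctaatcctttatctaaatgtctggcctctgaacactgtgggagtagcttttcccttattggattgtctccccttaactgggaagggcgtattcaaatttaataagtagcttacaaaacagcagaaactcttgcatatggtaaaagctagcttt
Gstm1, chr3:108017924-108018223, minus strand: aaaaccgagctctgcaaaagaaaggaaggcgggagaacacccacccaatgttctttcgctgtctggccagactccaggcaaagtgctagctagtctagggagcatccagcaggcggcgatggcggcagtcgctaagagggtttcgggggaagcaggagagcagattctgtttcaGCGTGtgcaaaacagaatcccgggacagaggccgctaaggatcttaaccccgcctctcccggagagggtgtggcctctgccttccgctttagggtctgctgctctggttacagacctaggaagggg
The HNF4 motif began 115 bases before the start of Cyp2c65, 76 bases before that of Cyp2c68 and 27 bases after the second start of Sult1b1. An antioxidant response element began 121 bases before the start of Gsta3, a glutathione transferase, and another stood 8 bases before that of Cyp2c65 on the other strand. The xenobiotic response element stood 76 bases before the start of Gstm1, 130 bases before that of Cyp2c68 on the other strand and 196 bases before the second start of Sult1b1. None of these motifs was in the windows of Cyp2c55, Ces2c or the first start of Sult1b1. Across all members the HNF4 motif was in 9 of 79 promoters (11.4%), against 1.25% of all 32851 promoters, and 6 of the 9 belonged to Cyp2c genes whose sequences are alike by descent. The antioxidant response element was in 10.1% of member promoters and 12.4% of all, and the xenobiotic response element in 19.0% and 32.4%. A Cdx2 motif, CATAAA, was in 19.0% of member promoters and 11.9% of all. A match is a run of letters and not a measured binding site.

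The members as a group were most abundant at the upper end of the axis. Their summed level was 2547 and 3272 CPM in crypt base cells, 2683 and 3012 in cycling, 4184 and 4592 in transitional, 7496 and 9055 in colonocyte and 8302 and 9548 CPM in surface cells. The batches gave the same order from transitional cells upward, while crypt base and cycling cells changed places between them. The sum was carried by few genes: Cyp2c55 alone held 28.8% and 41.8% of all member UMIs in the epithelium, and Cyp2c55, Sult1d1, Sult1b1 and Sult1a1 together held 48.6% and 57.8%. Goblet cells had 1539 and 1222 CPM, enteroendocrine cells 2544 and 1859 and tuft cells 834 and 407, all above the neutrophil background. What the families did differed. Cyp2c summed to 4158 and 5243 CPM in surface cells, against 166 and 355 in crypt base cells, and Ces2 to 1005 and 1139.6, against 38.1 and 47.4. Gstm summed to 81.5 and 82.8 CPM in surface cells, against 472 and 561 in crypt base cells.

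**Figure D1:**
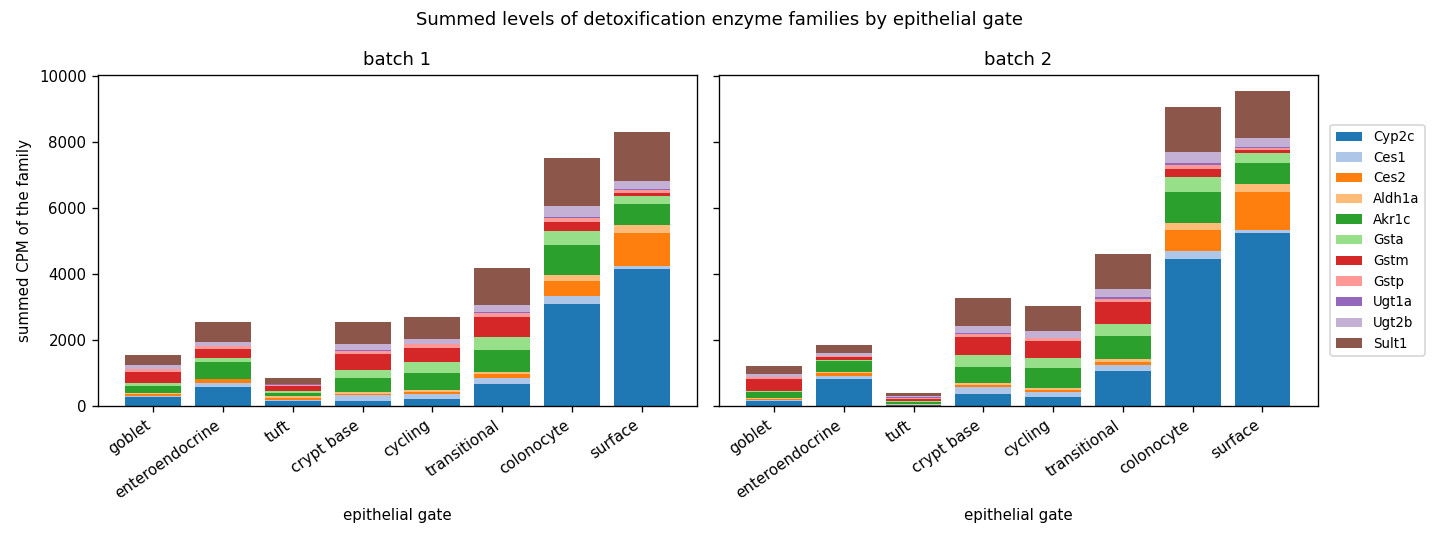
Summed CPM of the 11 families (stacked colours) in each epithelial gate, with secretory gates on the left and the crypt-to-surface series on the right, batch 1 and batch 2 in separate panels. The stack reaches 8302 and 9548 CPM in surface cells, and the Cyp2c part grows most between transitional and colonocyte cells.

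Surface cells were compared with crypt base cells on counts summed per gate and batch, with edgeR's quasi-likelihood test, batch as a block and Benjamini-Hochberg adjustment over 15287 genes. Each sum pooled cells of all conditions, and most were untagged, so their condition is not known. Untagged cells were 354 of 388 and 101 of 120 in the crypt base and 907 of 1029 and 877 of 1028 at the surface. A filter on low counts left 49 of the 79 members. Of these, 23 were higher at the surface at an adjusted p of at most 0.05 and 16 were lower, where 31.5% and 30.4% of all genes tested were called higher and lower. The share called was thus higher than the background among members that rose, 23 of 49, and close to it among those that fell. The filter keeps members that are well expressed in some gate, so these shares are a description. The median log2 fold change was 0.66 over the members and -0.09 over all genes. TMM scaling, which assumes that most genes do not change, raised the surface-over-crypt-base log2 fold changes by 0.72 relative to scaling by library size. With library sizes alone 18 members were higher and 19 lower, where 17.3% and 49.5% of all genes were (2639 and 7573 in place of 4813 and 4651). Posterior genes (Hoxb13, Hoxd13, Hoxa13 and Prac1), which mark the region of the gut, together averaged 1.73 and 1.97 UMIs per 10000 in surface cells. Crypt base cells had 0.676 and 0.642, and the part of that difference in the members' values was not tested.

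**Figure D2:**
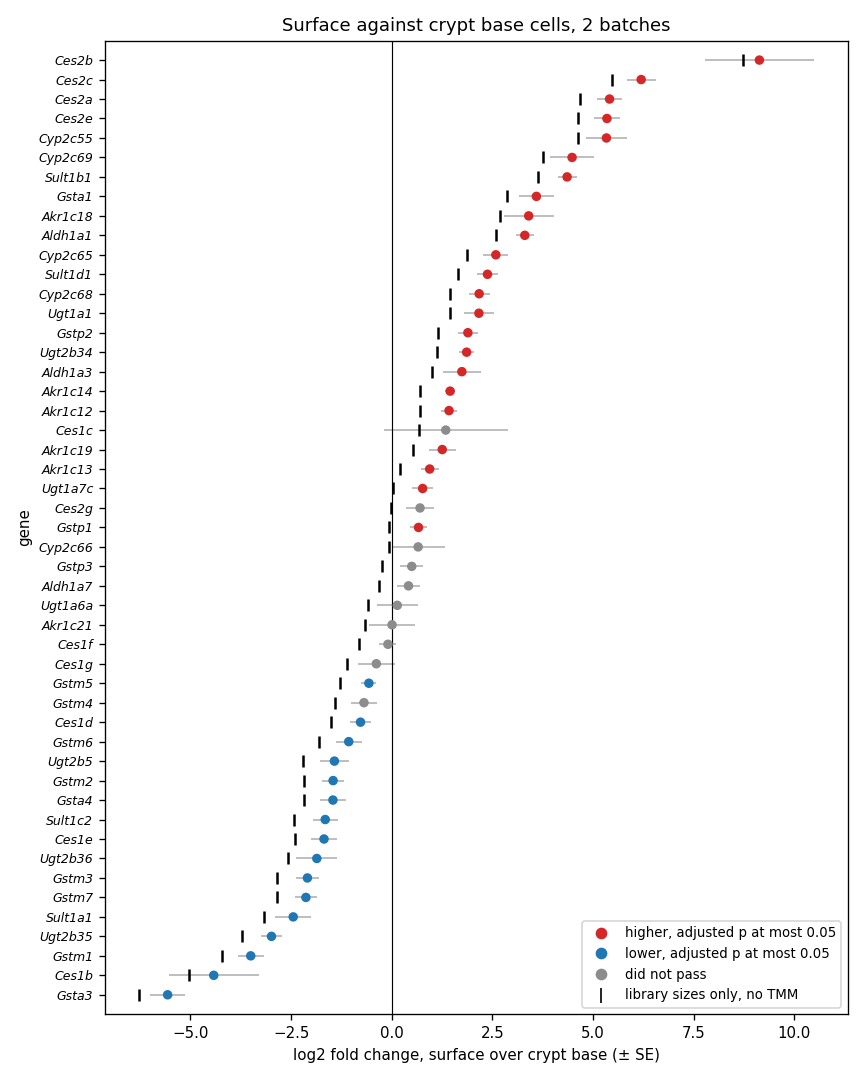
Log2 fold change of surface over crypt base cells for the 49 members tested, with SE (grey lines), coloured by call, and the value with library sizes alone as a black tick. Ces2c (6.20), Ces2a (5.41) and Cyp2c55 (5.33) lie at the high end and Gsta3 (-5.57) at the low end, and tick and point lie on opposite sides of 0 for 7 members: Gstp1, which was called, and Ces2g, Cyp2c66, Gstp3, Aldh1a7, Ugt1a6a and Akr1c21, which were not.

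The Cyp2c family of cytochromes P450 is an array of genes, all 15 on chromosome 19 (39007019 to 44029208), known for oxidising drugs and arachidonic acid. Only 5 of the 15 were abundant enough to test, 4 were called higher at the surface and none lower. Cyp2c55, which in mice oxidises arachidonic acid, had 3935 and 5008 CPM in surface cells, against 98.4 and 290.3 in crypt base cells. All surface values lay far above all crypt base values (log2 fold change 5.33, SE 0.52, adjusted p = 1.03e-07). Through the stages between, it had 128 and 181 CPM in cycling, 419.6 and 804 in transitional and 2731 and 4061 in colonocyte cells. The steepest step thus lay between transitional cells and colonocytes. With each cell thinned to 2000 UMIs, 89.3% and 95.5% of surface cells had a Cyp2c55 UMI, against 10.1% and 24.5% of crypt base cells. In neutrophils the share was 11.2% and 9.70%, but at median depths of 2762.5 and 3026 UMIs, against 15446.5 and 17788.5 in crypt base cells. Free RNA can be a larger part of such shallow droplets. The neutrophil share is therefore no measure of the background in crypt base cells. Cyp2c65 (gene at chromosome 19, 39061015 to 39093944) had 149.5 and 155 CPM in surface cells, against 44.4 and 39.6 in crypt base cells (log2 fold change 2.59, SE 0.31, adjusted p = 1.24e-06), and it was highest in colonocytes at 188 and 214. Cyp2c68 had 20.2 and 16.1 CPM in crypt base, 20.5 and 18.6 in cycling, 124 and 117 in transitional, 108 and 127 in colonocyte and 44.5 and 55.6 in surface cells. Its levels were thus highest in transitional cells and colonocytes and lower again at the surface, where they were still above the crypt base (log2 fold change 2.17, SE 0.26, adjusted p = 1.60e-06). Cyp2c69 had 25.1 and 21.0 CPM in surface cells, against 0.814 and 4.40 in crypt base cells (log2 fold change 4.48, SE 0.54). Cyp2c66 stayed at or under 9.67 CPM in every epithelial gate and did not pass (log2 fold change 0.66, SE 0.66). Cyp2c68 shares 51.2% of the 50-base windows of its last 500 exonic bases with Cyp2c40, Cyp2c67 and Cyp2c69, so reads of these genes can be confused, while Cyp2c55 shares none with any other gene. Cyp2c40, at most 1.74 CPM in any epithelial gate, and Cyp2c67, at most 1.36, were near 0. Cyp2c23, Cyp2c29, Cyp2c38, Cyp2c54 and Cyp2c70 stayed under 1 CPM, and Cyp2c37, Cyp2c39 and Cyp2c50 had no UMI.

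Carboxylesterases cleave esters and amides, and the Ces1 and Ces2 genes form separate clusters on mouse chromosome 8. In the Ces2 cluster (104734003 to 105021178), 5 of 7 members were tested, 4 were higher at the surface and none lower. Ces2c had 486 and 569 CPM in surface cells, against 11.6 and 12.7 in crypt base cells. That was among the widest gaps of the members (log2 fold change 6.20, SE 0.36, adjusted p = 2.21e-10), with no overlap. Ces2a had 215 and 259 CPM, against 9.27 and 8.80 (log2 fold change 5.41, SE 0.31, adjusted p = 2.05e-10). Ces2e had 291 and 295 CPM in surface cells, against 10.4 and 15.6 in crypt base cells (log2 fold change 5.35, SE 0.33, adjusted p = 5.13e-10). All 3 were low until the colonocyte stage, Ces2c being at 21.2 and 24.9 CPM in transitional and 188 and 273 in colonocyte cells. Ces2b had 198 UMIs in surface cells and 0 in crypt base cells, at least 17.5-fold higher when 3 counts over both batches are taken as the floor. Ces2g, by contrast, was highest in transitional cells at 18.0 and 14.6 CPM and did not pass between the ends (log2 fold change 0.70, SE 0.34). Ces2c shares 35.7% of its 3′ windows with Ces2b, Ces2e and a pseudogene. Ces2f and Ces2h, at most 0.805 and 1.41 CPM in any epithelial gate, were near 0.

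In the Ces1 cluster (93020214 to 93379725), 6 of 8 members were tested, none was higher at the surface and 3 were lower. Ces1d, a triacylglycerol hydrolase, had 24.7 and 25.0 CPM in surface cells, against 72.1 and 68.9 in crypt base cells (log2 fold change -0.78, SE 0.27, adjusted p = 0.0189). The groups did not overlap, but the call was lost when any 1 of the 4 sums was left out (adjusted p from 0.0785 to 0.2). Ces1e had 1.88 and 1.93 CPM in surface cells, against 11.1 and 8.80 in crypt base cells (log2 fold change -1.68, SE 0.31). Ces1g, which acts on lipid esters, made a hump: 52.1 and 114 CPM in crypt base, 74.8 and 78.3 in cycling, 109.6 and 106 in transitional, 148 and 144 in colonocyte and 39.7 and 34.8 in surface cells. Its ends did not differ beyond their spread (log2 fold change -0.38, SE 0.46, adjusted p = 0.486), and with library sizes alone it was called lower at the surface. Ces1f stood at 17.4 and 19.0 CPM in surface cells, against 30.9 and 33.2 in crypt base cells, without overlap. It did not pass (log2 fold change -0.09, SE 0.21), but with library sizes alone it was called lower (log2 fold change -0.82, adjusted p = 0.00198). Ces1b was highest in enteroendocrine cells, at 13.9 and 55.6 CPM, against at most 2.13 CPM in any other epithelial gate. Its lower call at the surface rested on levels of 0.0671 and 0 CPM in surface cells, against 1.63 and 0.489 in crypt base cells, and was lost without crypt base cells of batch 1 (adjusted p = 0.323) and without surface cells of batch 2 (adjusted p = 0.053). Ces1c was likewise highest in enteroendocrine cells, at 5.79 and 8.14 CPM, and did not pass between the ends. Ces1a and Ces1h, at most 0.579 and 1.16 CPM in any epithelial gate, were near 0.

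Aldh1a enzymes turn retinaldehyde into retinoic acid. Aldh1a1 (chromosome 19, 20492715 to 20643465) had 209.8 and 231 CPM in surface cells, against 31.2 and 45.0 in crypt base cells (log2 fold change 3.31, SE 0.23, adjusted p = 1.92e-09). It was the main epithelial form, and levels were already 173 and 224 CPM in colonocytes. Aldh1a3 had 17.0 and 7.28 CPM in surface cells, against 4.72 and 8.80 in crypt base cells, which overlapped between the groups. Its higher call (log2 fold change 1.74, SE 0.46) was lost without crypt base cells of batch 1 (adjusted p = 0.362), without surface cells of batch 1 (adjusted p = 0.124) and with library sizes alone. Aldh1a2 was at most 0.491 CPM in every epithelial gate but tuft. Tuft cells had 0 CPM in batch 1 and 4.79 in the 38 cells of batch 2, the lowest level above 0 of any member there. Fibroblasts of the same libraries had 357 and 321 CPM of Aldh1a2. Aldh1a7 stood between 6.24 and 13.2 CPM along the axis and did not pass (log2 fold change 0.42, SE 0.28).

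Akr1c aldo-keto reductases reduce steroids and other carbonyl compounds, and 8 of the 9 lie in a cluster on chromosome 13 (4049011 to 4586541). Of 6 tested, 5 were called higher at the surface and none lower, with smaller fold changes than those of Ces2a, Ces2c and Ces2e. Akr1c12 had 215 and 226 CPM in surface cells, against 129.5 and 143 in crypt base cells (log2 fold change 1.42, SE 0.20, adjusted p = 7.40e-06). Akr1c13, which shares 12% of its 3′ windows with Akr1c12, had 177 and 193 CPM in surface cells, against 153 and 167 in crypt base cells (log2 fold change 0.94, SE 0.23). These are narrow differences, and the Akr1c13 call did not pass with library sizes alone or without crypt base cells of batch 1 (adjusted p = 0.101). Akr1c19 made the clearest hump of the family, with 129 and 147 CPM in crypt base, 209 and 248 in cycling, 266 and 268 in transitional, 421 and 408 in colonocyte and 211 and 188 in surface cells. Its call between the ends (log2 fold change 1.25, SE 0.34) was likewise lost with library sizes alone and without crypt base cells of batch 1 (adjusted p = 0.151). Akr1c14 peaked in colonocytes too, at 57.4 and 51.4 CPM, with 40.5 and 34.2 in surface cells against 22.5 and 23.5 in crypt base cells (log2 fold change 1.45, SE 0.13). Akr1c18, which inactivates progesterone, was low throughout, with 4.76 and 2.99 CPM in surface cells against 0.325 and 1.47 in crypt base cells (log2 fold change 3.40, SE 0.62), and lost its call without crypt base cells of batch 1 (adjusted p = 0.106). Akr1c6, Akr1c20 and Akr1cl stayed under 1 CPM in every epithelial gate.

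**Figure D3:**
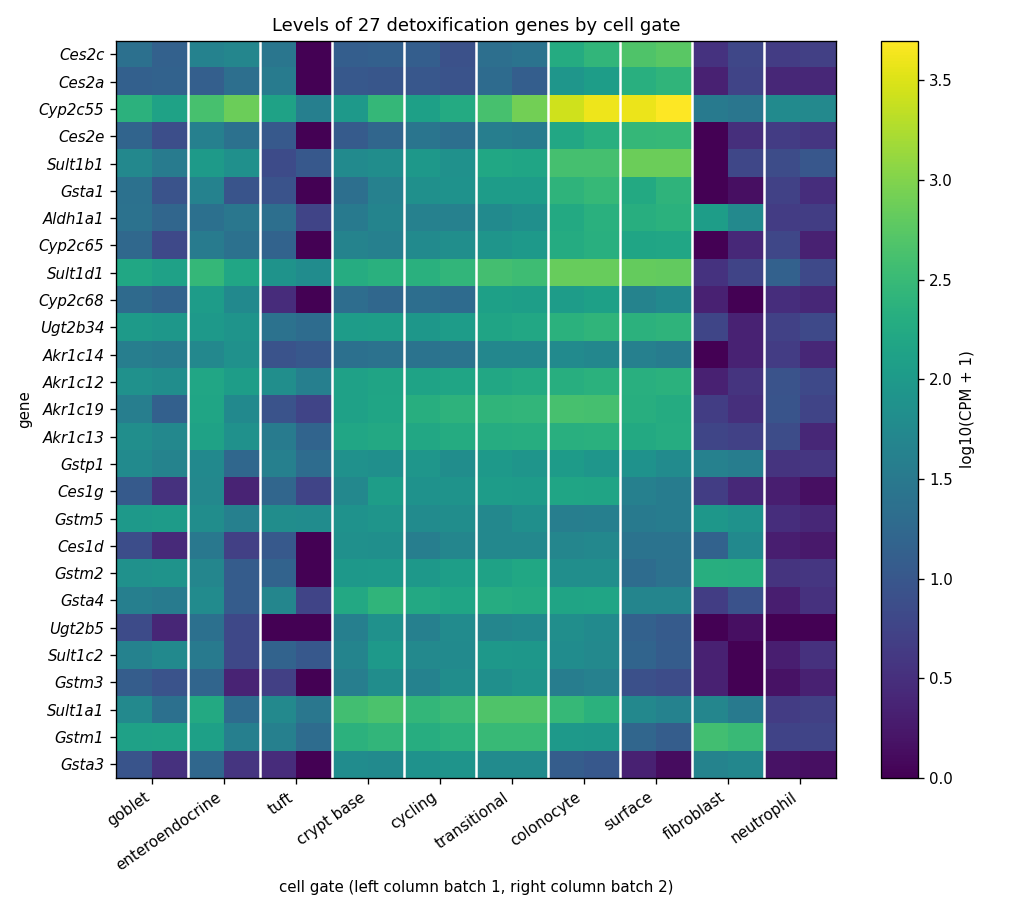
Levels of the 27 members at 50 CPM or more in an epithelial gate in both batches, as log10(CPM + 1), one row per gene and a pair of columns (batch 1, batch 2) per gate. Rows are ordered by the surface-over-crypt-base fold change: Ces2c, Ces2a and Cyp2c55 are brightest at the surface, Gstm1 and Gsta3 are brighter in crypt base to transitional cells, and the neutrophil columns, where all members sum to 169.8 and 146 CPM, are dark.

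Glutathione transferases of the Gstm class, which join glutathione to reactive compounds, were lower at the surface. All 7 genes of the cluster on chromosome 3 (107895821 to 108044894) were tested, 6 were lower at the surface and none higher. Gstm1 had 15.9 and 11.5 CPM in surface cells, against 236 and 273 in crypt base cells (log2 fold change -3.50, SE 0.32, adjusted p = 5.47e-08). It stayed high through the transitional stage, at 312 and 307 CPM, and was at 99.4 and 92.1 in colonocytes. The share of cells with a Gstm1 UMI at 2000 UMIs per cell was 2.38% and 1.48% at the surface, against 34.8% and 31.8% in the crypt base, with 1.22% and 0.636% in neutrophils. Gstm2 had 19.3 and 23.5 CPM in surface cells, against 93.7 and 101 in crypt base cells (log2 fold change -1.46, SE 0.28), and Gstm3 had 7.11 and 6.35, against 36.9 and 65.0 (log2 fold change -2.09, SE 0.28). Both peaked in transitional cells, as Gstm1, Gstm4 and Gstm6 did in both batches. Gstm5 was flatter, with 31.4 and 34.2 CPM in surface cells against 76.8 and 84.6 in crypt base cells. Its lower call (log2 fold change -0.57, SE 0.19) was lost without crypt base cells of batch 2 (adjusted p = 0.0636) and without surface cells of batch 1 (adjusted p = 0.0832) or batch 2 (adjusted p = 0.0565). Gstm6 (log2 fold change -1.07, SE 0.33) and Gstm7 (log2 fold change -2.13, SE 0.28) were lower as well, at most 23.3 CPM in any of the 5 stages, and Gstm6 missed the threshold without crypt base cells of batch 2 (adjusted p = 0.0568) or surface cells of batch 1 (adjusted p = 0.0594). Gstm4 did not pass (log2 fold change -0.69, SE 0.33) but was called lower with library sizes alone.

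The Gsta class was split. Gsta3, which in mice detoxifies the epoxide of aflatoxin B1, had 1.21 and 0.311 CPM in surface cells, against 61.7 and 57.2 in crypt base cells (log2 fold change -5.57, SE 0.43, adjusted p = 7.00e-09). It was highest in cycling cells, at 75.6 and 80.8 CPM, and already down to 11.2 and 9.44 in colonocytes. Gsta4, which conjugates the lipid peroxidation product 4-hydroxynonenal, had 47.7 and 47.4 CPM in surface cells, against 171 and 263 in crypt base cells (log2 fold change -1.46, SE 0.33, adjusted p = 9.58e-04). Gsta1 went the other way, with 175 and 252 CPM in surface cells, against 21.8 and 41.5 in crypt base cells (log2 fold change 3.59, SE 0.44, adjusted p = 1.70e-06), and a peak of 252 and 298 in colonocytes. Gsta1 shares 90.0% of its 3′ windows with Gsta2 and 2 predicted genes, so its count is that of a near-identical group, and Gsta2 was listed at no more than 0.760 CPM in any epithelial gate. Gstp1, the main Gstp form, had 76.4 and 59.0 CPM in surface cells, against 72.6 and 69.4 in crypt base cells, and these overlapped. Its higher call with TMM scaling (log2 fold change 0.66, SE 0.22, adjusted p = 0.0136) turned to -0.062 with library sizes alone and was lost without crypt base cells of batch 1 (adjusted p = 0.42), surface cells of batch 1 (adjusted p = 0.0679) or surface cells of batch 2 (adjusted p = 0.0531). Gstp1 and Gstp2 share 75.2% and 88.9% of their 3′ windows with each other and a pseudogene, so they cannot be told apart with confidence. Gstp2 had 16.1 and 12.8 CPM in surface cells, against 5.86 and 8.31 in crypt base cells (log2 fold change 1.89, SE 0.25), and Gstp3 did not pass (log2 fold change 0.50, SE 0.28).

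Glucuronosyltransferases attach glucuronic acid. The 9 Ugt1a genes on chromosome 1 (88055388 to 88220002) differ in their first exons and share their last exons, so counting at the 3′ end cannot assign most of their molecules. Ugt1a7c is the exception in the annotation, with 500 of its last 500 exonic bases its own because its model ends further downstream (88220002), and it held 1342 and 890 UMIs in epithelial cells, against 357 and 233 for Ugt1a1, the bilirubin transferase. Whether Ugt1a7c also holds molecules of the other Ugt1a genes was not tested. All 9 genes together summed to 27.9 and 26.1 CPM in surface cells, against 18.7 and 28.8 in crypt base cells, with overlap. Ugt1a7c had 17.1 and 17.0 CPM in surface cells, against 12.5 and 23.5 in crypt base cells, with overlap and a peak in colonocytes at 23.5 and 33.7. Its higher call (log2 fold change 0.77, SE 0.26, adjusted p = 0.0181) was lost with library sizes alone (0.04), without crypt base cells of batch 1 (adjusted p = 0.645) and without surface cells of batch 1 (adjusted p = 0.152). Ugt1a1 was called higher too, at 9.12 and 7.10 CPM in surface cells, against 2.60 and 3.91 in crypt base cells (log2 fold change 2.17, SE 0.36), and Ugt1a6a did not pass (log2 fold change 0.14, SE 0.52). Ugt1a2, Ugt1a5, Ugt1a6b and Ugt1a9 reached at most 1.36 CPM in any epithelial gate, and Ugt1a8 and Ugt1a10 had no UMI, which for a gene with shared last exons does not bear on its expression. In the Ugt2b cluster on chromosome 5 (86889767 to 87424203), 4 of 7 were tested, 1 was higher and 3 lower. Ugt2b34 had 234 and 252 CPM in surface cells, against 108 and 113 in crypt base cells (log2 fold change 1.86, SE 0.18, adjusted p = 8.72e-08). Ugt2b5 had 12.9 and 10.4 CPM, against 38.6 and 74.3 (log2 fold change -1.42, SE 0.35), a call lost without crypt base cells of batch 2 (adjusted p = 0.0582). Ugt2b35 had 29.6 and 25.4 CPM in crypt base, 15.0 and 18.1 in cycling, 16.9 and 14.6 in transitional, 7.62 and 7.46 in colonocyte and 1.88 and 2.30 in surface cells (log2 fold change -2.99, SE 0.25, adjusted p = 3.59e-08). It was highest in the crypt base and lowest at the surface in both batches, the opposite of its neighbour Ugt2b34. Ugt2b36 was lower as well, from a low level (1.21 and 0.996 CPM in surface cells, against 5.53 and 8.31 in crypt base cells), and missed the threshold without surface cells of batch 2 (adjusted p = 0.0508). Ugt2b1 and Ugt2b37 stayed under 1 CPM, and Ugt2b38 had no UMI.

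Cytosolic sulfotransferases of the Sult1 family add sulfate to phenols, amines and steroids, and of 4 tested, 2 were higher and 2 lower at the surface. Sult1b1 had 750.4 and 741 CPM in surface cells, against 58.7 and 63.1 in crypt base cells (log2 fold change 4.36, SE 0.24, adjusted p = 1.24e-10). Its levels were higher at each stage than at the one before, with 159.9 and 148 CPM in transitional and 399 and 399 in colonocyte cells. Sult1d1, which in mice sulfates catecholamines, had 672 and 645 CPM in surface cells, against 193 and 225 in crypt base cells (log2 fold change 2.38, SE 0.27, adjusted p = 6.44e-07), and was as high in colonocytes (688 and 681). Sult1a1, a phenol sulfotransferase, had 384 and 452 CPM in crypt base, 283 and 336 in cycling, 475 and 474 in transitional, 299 and 226 in colonocyte and 52.2 and 42.8 in surface cells. It was thus high through the crypt and low at the surface (log2 fold change -2.45, SE 0.45, adjusted p = 1.50e-04). Sult1c2 had 14.8 and 10.9 CPM in surface cells, against 45.7 and 101 in crypt base cells (log2 fold change -1.65, SE 0.31). Sult1b1 and Sult1d1 lie within 1 cluster on chromosome 5 (87513339 to 87591594) with Sult1e1, the oestrogen sulfotransferase, which was at most 1.98 CPM in any epithelial gate and had 29.1 and 170.2 CPM in fibroblasts. Sult1c1 stayed under 1 CPM in the epithelium.

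Across the 40 members that reached 10 CPM in a gate of the axis, 32 had their highest stage in the same gate in both batches. The surface held 6 of them (Aldh1a1, Ces2a, Ces2c, Ces2e, Cyp2c55 and Sult1b1), colonocytes 12, transitional cells 9, cycling cells 1 (Gsta3) and the crypt base 4 (Ces1d, Ces1e, Gstm5 and Ugt2b35). Many members therefore peaked below the surface. Cells of the gates from crypt base to surface were also cut into 7 steps by their surface-list level. Cyp2c55 went through 39.4 and 45.9, 144 and 265, 542 and 992, 1965 and 2515, 3247 and 4604, 4333 and 5364 and 3599.8 and 4794 CPM from the lowest to the highest step. Its level was thus highest in the step before the last, as was that of Aldh1a1 (258 and 298 CPM, then 169 and 191 in the last step). Sult1b1 and Ces2c were highest in the last step, at 819 and 809.6 CPM and 515 and 599.7 CPM. Akr1c19 had 131 and 141 CPM in the first step, 458 and 395 in the fourth and 142 and 116 in the last. Gsta3 had 93.9 and 76.9 CPM in the first step, 17.5 and 23.0 in the fourth and 0.495 and 0 in the last. The steps hold the same libraries as the gates, so they show the shape of the course and are no further replicates.

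**Figure D4:**
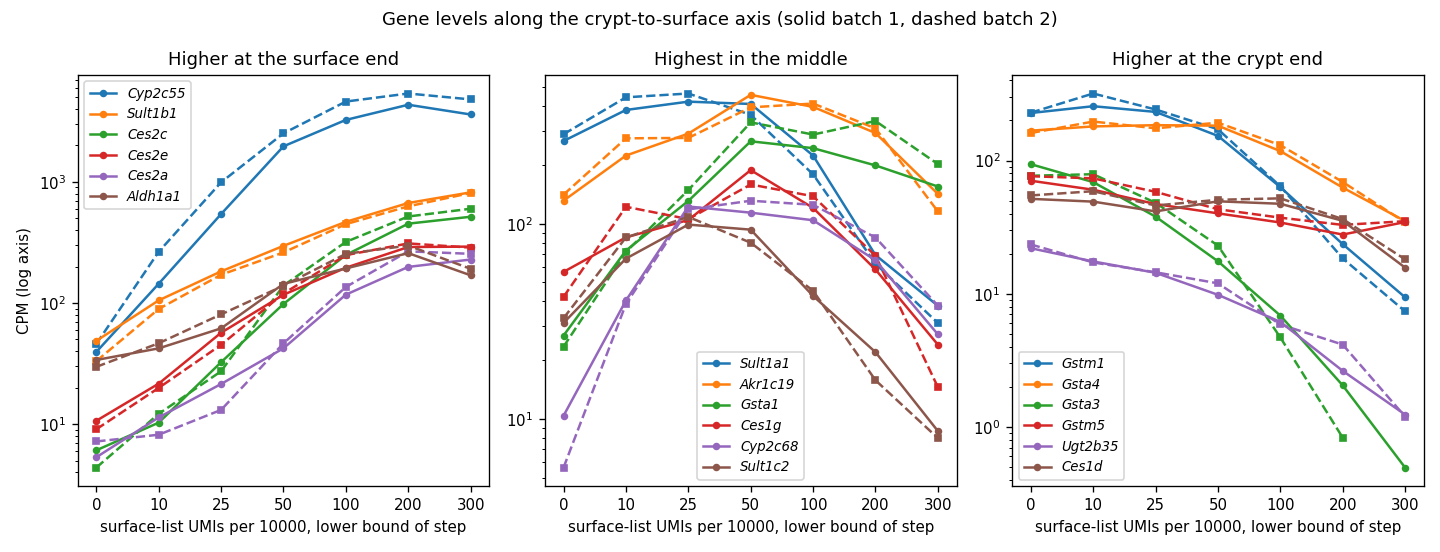
CPM (log axis) of 18 members in 7 steps of the surface-list level, solid lines batch 1 and dashed lines batch 2. The left panel holds members higher at the surface end than at the crypt end, of which Cyp2c55 and Aldh1a1 are lower again in the last step. The middle panel holds members with a hump, such as Akr1c19, and the right panel members that fall, such as Gsta3. A value of 0 (Gsta3, last step, batch 2) is not drawn.

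Other genes of the pathway, in lists chosen for it, are given on the TMM scale, with its shift of 0.72, beside the counts with library sizes alone. Over all genes 31.5% were called higher and 30.4% lower on the TMM scale, and 17.3% and 49.5% with library sizes alone. Of 29 other phase 1 enzymes tested, 20 were higher and 7 lower (15 and 9 with library sizes alone), with a list median of 1.63, against -0.09 over all genes. Por, the reductase that feeds electrons to P450 enzymes, rose (log2 fold change 2.46), as did the P450 genes Cyp4f14 (4.99) and Cyp3a13 (3.94), while Ephx1, an epoxide hydrolase, fell (-3.48). Of 19 other phase 2 and cofactor genes, 14 were higher and 2 lower (9 and 5 with library sizes alone), with a median of 0.97. Among those higher were Papss2 (log2 fold change 2.69), which makes the sulfate donor of the sulfotransferases, and Ugdh (2.79), which makes UDP-glucuronic acid. Of 11 carriers, 6 were higher and 2 lower (6 and 5 with library sizes alone), with a median of 1.78 and Abcg2, an efflux pump, at 4.46. Of 14 sensors and regulators, 9 were higher and 1 lower (5 and 4 with library sizes alone), with a median of 0.75, and with Nr1i3 (the receptor CAR) at 2.94, Rxra at 2.04, Nr1i2 (the receptor PXR) at 1.53 and Hnf4a at 1.48. Ahr (log2 fold change -0.05) and Nfe2l2, which encodes Nrf2 (0.40), did not pass. Of 12 Nrf2-linked antioxidant genes, 5 were higher and 2 lower (3 and 6 with library sizes alone), with a median of 0.087 (-0.64 with library sizes alone), and with Txnrd1 higher (1.36) and Gpx2 lower (-2.69). Of 15 retinoid genes, 7 were higher and 3 lower (4 and 5 with library sizes alone), with a median of 0.44 (-0.29 with library sizes alone), Rbp2, a retinol-binding protein, by 5.88.

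Between surface cells and colonocytes, the neighbouring stages, members were more often lower at the surface. Of the 49 tested, 5 were higher (all genes 17.9%) and 20 were lower (all genes 13.2%). Those higher at the surface were Ces2a (215 and 259 CPM, against 87.0 and 112 in colonocytes; log2 fold change 1.58, SE 0.22, adjusted p = 5.59e-05), Ces2c (log2 fold change 1.53, SE 0.26), Sult1b1 (log2 fold change 1.23, SE 0.20), Ces2e (log2 fold change 0.95, SE 0.24) and Aldh1a3 (log2 fold change 2.03, SE 0.41). Ces2e lost its call with library sizes alone, without colonocytes of batch 1 (adjusted p = 0.17) and without surface cells of batch 2 (adjusted p = 0.0827), and Aldh1a3 without surface cells of batch 1 (adjusted p = 0.0751). Cyp2c55 had 3935 and 5008 CPM in surface cells, against 2731 and 4061 in colonocytes, and did not pass (log2 fold change 0.74, SE 0.43, adjusted p = 0.213). The lower calls took in Gsta3 (-3.45), Gstm1 (-2.49), Gstm3 (-2.21), Sult1a1 (-2.13), Ugt2b5 (-2.11), Sult1c2 (-1.88) and Ces1g (-1.64), as log2 fold changes. The call of Ces1g was lost without surface cells of batch 1 (adjusted p = 0.0695) or batch 2 (adjusted p = 0.0588), and 8 of the 20 lower calls and 3 of the 5 higher ones held in every alternative run. TMM scaling raised these fold changes by 0.33, and with library sizes alone 4 members were higher and 25 lower, where 7.35% and 23.1% of all genes were (1123 and 3524 in place of 2736 and 2014).

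Goblet cells, the mucus-secreting type, held much less of these enzymes than colonocytes. Of the 49 members tested, 35 were lower in goblet cells, where 20.8% of all genes were, and 3 were higher, where 21.4% of all genes were. The median log2 fold change was -2.33 over the members and 0.06 over all genes. Cyp2c55 had 236 and 135 CPM in goblet cells, against 2731 and 4061 in colonocytes (log2 fold change -4.20, SE 0.49, adjusted p = 1.96e-06). At 2000 UMIs per cell 11.9% and 7.16% of goblet cells had a Cyp2c55 UMI, against 88.5% and 92.1% of colonocytes. Neutrophils had 11.2% and 9.70%, but at median depths of 2762.5 and 3026 UMIs, against 22217.5 and 22562 in goblet cells. Thinning does not make the part of free RNA equal in cells of such unlike depth. The neutrophil share is therefore no measure of the background in goblet cells. The neutrophil level, 58.7 and 54.3 CPM, was below that of goblet cells, whose level rested on a small share of cells. Akr1c19 had 37.6 and 12.8 CPM in goblet cells, against 421 and 408 in colonocytes (log2 fold change -4.19, SE 0.37), Gsta1 22.7 and 7.77, against 252 and 298 (log2 fold change -4.24, SE 0.43), and Ces1d 6.57 and 1.72, against 48.2 and 51.7 (log2 fold change -3.57, SE 0.31). Not all members followed. Of the 7 Gstm genes, 1 was lower in goblet cells (Gstm3, log2 fold change -2.06, SE 0.24), 1 higher and 5 did not pass, among them Gstm1 at 129.6 and 135 CPM, against 99.4 and 92.1 (log2 fold change 0.39, SE 0.28, adjusted p = 0.299). Gstm5 was higher in goblet cells, at 97.8 and 105 CPM, against 36.6 and 38.8 in colonocytes (log2 fold change 1.34, SE 0.18, adjusted p = 8.90e-06). Akr1c21, an aldo-keto reductase of steroids, was in goblet cells nearly alone, at 8.96 and 19.0 CPM, against 0.353 and 0.249 in colonocytes, and at most 0.760 CPM in any other epithelial gate. The goblet level was uneven between tags and not repeated in the same tag. It was 77.9 and 9.66 CPM under TG_WT and 0 and 40.2 under Ctrl_DSS. Untagged goblet cells had 1.03 and 7.98 CPM, and those tagged TG_DSS or Ctrl_WT had 0 in both batches. Akr1c21 was called higher (log2 fold change 5.18, SE 0.45), but it passed the filter on low counts only through goblet cells, so the call adds nothing to these levels. Ces1b was also called higher in goblet cells from 1.03 and 2.13 CPM, against 0.212 and 0.373, but not without colonocytes of batch 1 (adjusted p = 0.0782) or 2 (adjusted p = 0.103) or without goblet cells of batch 2 (adjusted p = 0.074). Gsta3 was called lower in goblet cells (log2 fold change -1.01, SE 0.34) but lost the call without colonocytes of batch 1 (adjusted p = 0.0801) or 2 (adjusted p = 0.0788) or goblet cells of batch 2 (adjusted p = 0.186), and stood at 0.018 under stricter gates.

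Enteroendocrine and tuft cells, which sense the contents of the gut, were few, with median depths of 4746 to 6556.5 UMIs, and their levels are given without a test. Enteroendocrine cells had 295 and 155 CPM of Sult1d1, 153 and 113 of Akr1c12 and 111 and 55.6 of Cyp2c68. Their Cyp2c55 level of 418 and 744 CPM rested on a small share of cells, since 11.1% and 7.45% had a UMI at 2000 UMIs per cell. No order is read from that level. Tuft cells had 63.4 and 62.3 CPM of Gstm5 and 79.3 and 62.3 of Sult1d1. Fibroblasts of the same libraries carried another set, with Gstm1 at 376 and 317 CPM, Gstm2 at 209.8 and 204, Aldh1a2 at 357 and 321 and Aldh1a3 at 114 and 106.

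Among the tags, the targeted gene Jup, a junction protein also called plakoglobin, was counted in epithelial cells first. Its level was 23.6 and 82.5 CPM in cells tagged TG_DSS, 77.1 and 98.9 in TG_WT, 13.9 and 8.72 in Ctrl_DSS and 70.9 and 65.9 in Ctrl_WT. It was lowest under Ctrl_DSS, which is wild type with DSS by name and untreated JUP-KO by antibody number, and since the deleted part of the gene is not stated, its 3′ reads do not check the labels. Neutrophil-gate cells, which were 514 and 460 under TG_DSS, were 10 and 244 under TG_WT and 1 and 7 under Ctrl_DSS, and neither reading was chosen from these values. Tagged epithelial cells were few, 79 and 50 for TG_DSS, 342 and 179 for TG_WT, 295 and 379 for Ctrl_DSS and 96 and 56 for Ctrl_WT. With edgeR and the filter on low counts, no member passed in any of 5 comparisons over all epithelial cells. Of all 11692 genes, edgeR called 0 (0%) for TG_DSS against Ctrl_WT, TG_DSS against TG_WT, TG_WT against Ctrl_WT and the difference of differences, and 1 (0.00855%) for Ctrl_DSS against Ctrl_WT, S100g, a calcium-binding protein named after its value was seen. At an unadjusted p under 0.05 there were 11 members and 984 genes for TG_DSS against Ctrl_WT, 1 and 673 for TG_DSS against TG_WT, 8 and 511 for TG_WT against Ctrl_WT, 14 and 1607 for Ctrl_DSS against Ctrl_WT, and 8 and 881 for the difference of differences, of 45 members tested. Other fits did call members. Among genes to which it gave an adjusted p, DESeq2 called 10 of 28 members for Ctrl_DSS against Ctrl_WT, all lower (4.06% of all genes), 2 of 47 for TG_DSS against Ctrl_WT (0.463%), 1 of 25 for the difference of differences (0.713%), 0 of 47 for TG_DSS against TG_WT (0.0694%) and 0 of 36 for TG_WT against Ctrl_WT (0.0328%). Without the filter, edgeR called 13 of 63 members for Ctrl_DSS against Ctrl_WT (3.05% of all genes), 9 for TG_DSS against Ctrl_WT (1.77%), 7 for TG_WT against Ctrl_WT (0.883%), 4 for the difference of differences (1.62%) and 2 for TG_DSS against TG_WT (1.15%). The comparisons with Ctrl_WT share its cells.

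The 5 members with the smallest p between Ctrl_DSS and Ctrl_WT were Aldh1a1, Cyp2c65, Sult1d1, Cyp2c55 and Ces2a. All were among the members called higher at the surface, which were 23 of the 49 tested against the crypt base. Aldh1a1 had 56.4 and 102 CPM in cells tagged Ctrl_DSS, against 144 and 246 in Ctrl_WT. The groups did not overlap, and the difference did not pass with edgeR (log2 fold change -1.37, SE 0.17, adjusted p = 0.0665). It passed with DESeq2 (adjusted p = 1.20e-07), with edgeR without the filter (adjusted p = 4.73e-07) and without droplets with leukocyte transcripts (adjusted p = 0.0424). Cyp2c55 had 610.1 and 1718 CPM in cells tagged Ctrl_DSS, against 1959 and 3769 in Ctrl_WT (log2 fold change -1.45, SE 0.24, adjusted p = 0.0976). Ces2a had 24.0 and 55.0 CPM, against 106 and 137 (log2 fold change -1.73, SE 0.31, adjusted p = 0.0976), and Sult1d1 269 and 314, against 494 and 765 (log2 fold change -1.15, SE 0.19, adjusted p = 0.0881). Cyp2c55, Ces2a and Sult1d1 passed without the filter and with DESeq2 (adjusted p = 1.66e-05, 5.51e-04 and 1.76e-06 in that order). The other tags lay between these in both batches for Aldh1a1 and Sult1d1. Aldh1a1 was at 96.8 and 129.5 CPM in TG_DSS and 81.9 and 135 in TG_WT, and Sult1d1 at 361 and 389 in TG_DSS and 417 and 445 in TG_WT. The mix of gates moved with the tags. Goblet cells were 41.7% and 42.2% of epithelial cells tagged Ctrl_DSS, against 19.8% and 10.7% of Ctrl_WT, and colonocyte and surface cells together were fewer under Ctrl_DSS (11.2% and 14.2% colonocyte and 6.10% and 18.2% surface, against 17.7% and 42.9% and 31.2% and 19.6% in Ctrl_WT). With goblet, enteroendocrine and tuft cells left out, the median over the members for Ctrl_DSS against Ctrl_WT was -0.29 in place of -0.53, and edgeR called no member in any of the 5 comparisons.

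Within colonocyte and surface cells alone, the fold changes between these tags were smaller, though the change in them was not tested. Aldh1a1 had 157 and 289 CPM in cells tagged Ctrl_DSS, against 279 and 376 in Ctrl_WT, with overlap (log2 fold change -0.59, SE 0.22, adjusted p = 1.0). Cyp2c55 had 2664 and 5560.0 CPM, against 3956 and 5431 (log2 fold change -0.23, SE 0.30). Sult1d1 and Ces2a stayed lower under Ctrl_DSS without overlap. Sult1d1 had 614 and 690 CPM, against 815 and 916 in Ctrl_WT, and Ces2a 79.5 and 178, against 197 and 229. The median over the 35 members tested was -0.07, and 2 members had an unadjusted p under 0.05. Over all epithelial cells the median had been -0.53, but more members were tested there, so the medians are not over the same members. No member passed with edgeR for Ctrl_DSS or TG_WT against Ctrl_WT, where edgeR called 0 of 8414 genes (0%) in both, with 317 and 413 at an unadjusted p under 0.05. For TG_DSS against Ctrl_WT, a comparison added after the data were seen, 27 genes passed (0.321%), all higher, and none was a member. There, 7 of the 35 members had an unadjusted p under 0.05. The count over all genes is not given for that comparison, so nothing is read from the 7. DESeq2 called 0 members in these 3 comparisons (0.258% of all genes for TG_DSS, 0.0333% for TG_WT and 0.0111% for Ctrl_DSS against Ctrl_WT), and edgeR without the filter called 3 of 59 (1.13%), 1 (0.572%) and 0 (0.328%), in the same order. Ces1g had 47.0 and 48.4 CPM in cells tagged TG_DSS, against 133 and 287 in Ctrl_WT (log2 fold change -2.12, SE 0.54, adjusted p = 0.308), and passed when TG_WT of batch 1 (adjusted p = 0.00157) or batch 2 (adjusted p = 0.00198) was left out of the fit. Leukocyte-list transcripts in these cells were 698 and 596 CPM under TG_DSS, 56.5 and 169 under TG_WT, 11.1 and 17.4 under Ctrl_DSS and 43.1 and 20.0 under Ctrl_WT, and their part in the members' values was not tested. In these sums fewer cells of a kind and less RNA per cell cannot be told apart.

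**Figure D5:**
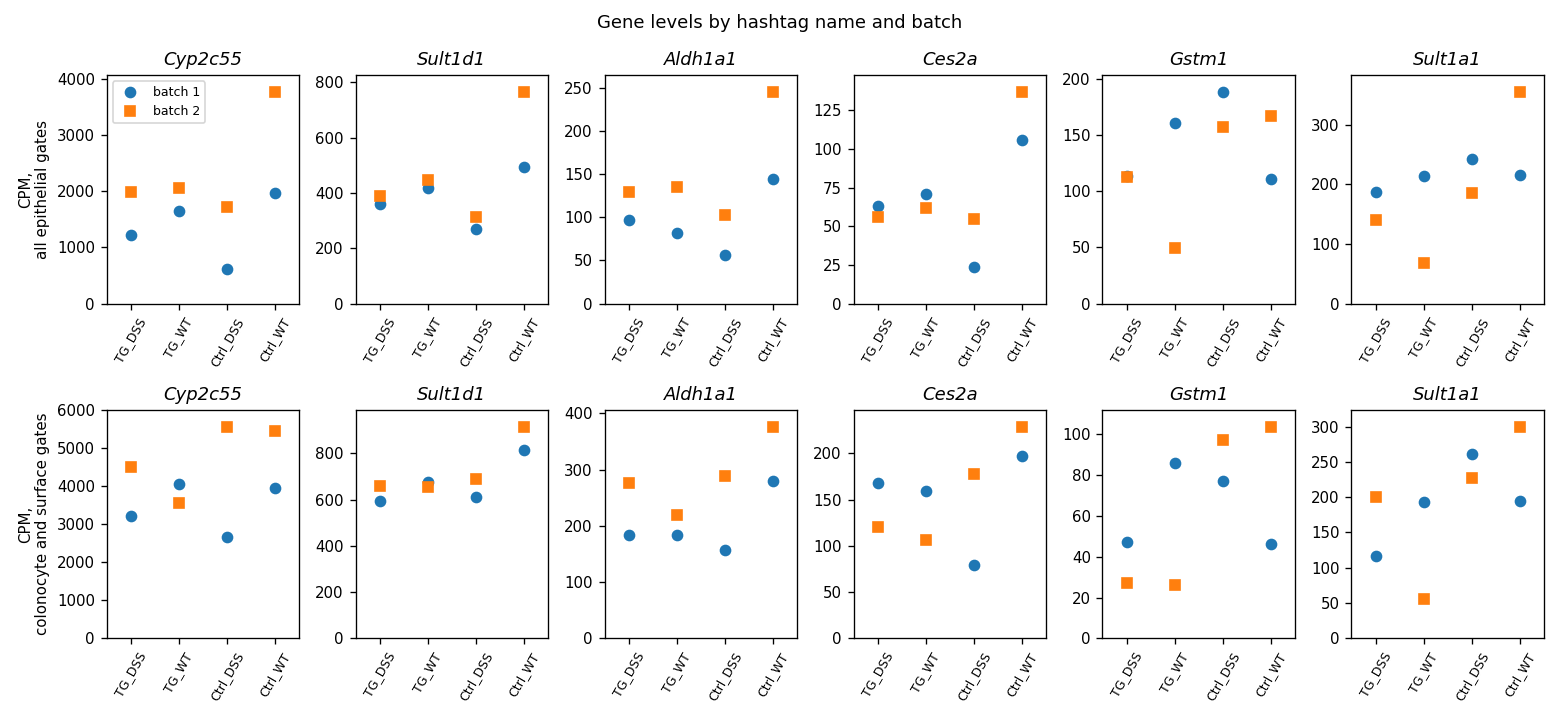
CPM of 6 members by tag name, batch 1 as circles and batch 2 as squares, over all epithelial gates (top) and over colonocyte and surface cells (bottom), each axis starting at 0. For Aldh1a1 both Ctrl_DSS points lie below both Ctrl_WT points in the top row and overlap them in the bottom row.

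The crypt-to-surface pattern itself was present under every tag. Colonocyte and surface cells of a tag and batch were set against its crypt base, cycling and transitional cells wherever both had at least 20 cells. The 23 members called higher at the surface were higher in the upper part for 19 (TG_DSS, batch 1), 22 and 20 (TG_WT), 21 and 21 (Ctrl_DSS) and 23 (Ctrl_WT, batch 1) of them. Of the 16 called lower, 15 had a value there (Ces1b had none), and 15, 13 and 15, 14 and 13, and 14 of them were lower in the upper part, in the same order of tags and batches. Gsta3 had 15.4 and 8.30 CPM in the upper part, against 72.6 and 72.8 in the lower part, for cells tagged Ctrl_DSS. Ces2c had 209 and 486 CPM in the upper part, against 16.4 and 15.3 in the lower part, under the same tag. These cells are also part of the gates, so the counts describe the course within tags and are no separate test.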

How the data were processed

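Raw UMI counts per gene and hashtag were deposited for every barcode, made with Cell Ranger 7.0.0 on mm10, per the submitters' processing notes. The 2 batches held 133919905 and 95408149 UMIs. Cells were called from the counts in 2 steps, a knee (0.1 of the 99th percentile of the 14000 richest barcodes) and a test of at least 500 UMIs against ambient barcodes (at most 100 UMIs, 10000 draws, adjusted p at most 0.01). Barcodes under 250 genes or over 25% mitochondrial UMIs were dropped, leaving 7155 and 6471 cells with medians of 12309 and 7091 UMIs. Hashtags were called by a mixture threshold per tag and batch. Cells over several thresholds (266 and 699) were left out as doublets, no other doublet caller was run, and untagged cells (4539 and 2611) entered the gates but no tag group. Viability sorting and unequal tagging can change shares of cells.

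Epithelial gates used marker lists as UMIs per 10000, with cut-offs set after marker levels were seen and without looking at the members: surface list at least 200 for surface, at least 50 for colonocyte, cycling and crypt base lists at least 8, goblet list at least 100, enteroendocrine and tuft lists at least 30. The members and lists were chosen with earlier results of these data known. Values in full were given for members at 50 CPM or more in an epithelial gate in both batches and for the member with most UMIs of each family.

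Counts were summed per gate or tag and batch, sums under 20 cells left out, and compared by edgeR 4.0.16 under R 4.3.3 (TMM, filterByExpr, quasi-likelihood, adjusted p at most 0.05). SE is the log2 fold change divided by the root of its F statistic. Batch was a block in all fits, since the labels' protocols say that cells of a batch were pooled and loaded together. Deviations of sums with the same batch correlated by -0.082 to 0.395 over 28 pairs of gates and by -0.0682 to 0.556 over 6 pairs of tags. The code was tested on simulated counts. Alternatives were DESeq2 1.42.0, no filter, no block, stricter gates, other tag rules, goblet, enteroendocrine and tuft cells left out, untagged cells only, thinned cells, at most 10% mitochondrial UMIs, no leukocyte-transcript droplets, each sum left out and, chosen after seeing the data, library sizes without TMM. Gene coordinates are from GENCODE M21 (GRCm38, the same build, counted from 1), which held all 79 members under the same symbols, and promoters from RefSeq. Intervals and floors cover counting error only.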

Additional observations from a re-analysis of the deposited data

How the results depend on the processing

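Of the calls between gates, 14 of 23 higher and 6 of 16 lower members at the surface against the crypt base, 3 of 5 and 8 of 20 against colonocytes, and 2 of 3 and 32 of 35 of goblet cells against colonocytes held under every alternative run. With exactly 1 tag the surface counts became 15 higher and 7 lower against the crypt base, where batch 2 kept only 19 crypt base cells and its sum was left out, and 12 lower against colonocytes. Thinning to 2000 UMIs gave 8 higher against colonocytes, and stricter gates 7 higher in goblet cells. Shares of all genes called are given in this section only for DESeq2 and the fit without a filter. Whether the other counts of members moved along with those of all genes was not tested. Gstp1 at the surface against the crypt base turned to -0.062 (adjusted p = 0.792) with library sizes alone, and Gsta3 in goblet cells against colonocytes to 0.018 (adjusted p = 0.979) with stricter gates; the cause was not tested. Leaving out 1 sum gave 17 to 24 higher and 12 to 16 lower (surface against crypt base), 4 to 5 and 14 to 20 (against colonocytes), and 2 to 3 and 34 to 36 (goblet).

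For the tags, without a filter on low counts (63 members tested in the epithelium and 59 in colonocytes, 0.328% to 3.05% of all genes called) members called were 9 (TG_DSS against Ctrl_WT), 2 (TG_DSS against TG_WT), 7 (TG_WT against Ctrl_WT), 13 (Ctrl_DSS against Ctrl_WT), 4 (difference of differences), and in colonocytes 3 (TG_DSS) and 1 (TG_WT) against Ctrl_WT. DESeq2 called 2 (TG_DSS against Ctrl_WT, 0.463% of all genes), 10 (Ctrl_DSS against Ctrl_WT, 4.06%) and 1 (difference of differences, 0.713%). For Ctrl_DSS against Ctrl_WT the highest-tag rule called 1 and the fit without droplets with leukocyte transcripts 1, Aldh1a1 (log2 fold change -1.39). Leaving out 1 sum gave 0 to 1 in TG_DSS against TG_WT, TG_WT against Ctrl_WT, Ctrl_DSS against Ctrl_WT and the difference of differences, 0 for TG_DSS against Ctrl_WT, and in colonocytes 0 to 2 (TG_DSS), 0 to 3 (TG_WT) and 0 (Ctrl_DSS). A lone sum is then assumed to vary like the others.

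Without the replicate block the counts were 22 higher and 15 lower (surface against crypt base), 5 and 18 (against colonocytes), 3 and 34 (goblet), and 0 in all tag comparisons, so the block moved no count by over 1.5 times. The highest-tag rule in colonocytes gave no result, and colonocytes tagged TG_DSS at 10% mitochondrial UMIs or less were too few. Depth and few tagged cells limit members at low levels: 11 members had under 10 UMIs over both batches.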

Other observations

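Members also differed inside the secretory gates. These subsets were chosen after the data were seen and are given as levels, with no test. Akr1c21 was found in goblet cells low in the deep-crypt list, at 11.9 and 21.9 CPM (603 and 463 cells), against 0.428 and 0 in goblet cells high in it (195 and 71 cells). Its goblet level was highest under TG_WT in batch 1 (77.9 CPM) and under Ctrl_DSS in batch 2 (40.2 CPM), and the split was not made by tag. Ces1f, a carboxylesterase, followed the same split, with 19.1 and 19.5 CPM against 6.41 and 1.86. Among enteroendocrine cells, Ces1b was at 18.2 and 59.5 CPM in cells with more Tph1, the enzyme of serotonin synthesis (128 and 90 cells), and at 0 and 0 in cells with more Pyy and Insl5, which encode gut hormones (28 and 5 cells). In the 28 batch 1 cells, Cyp2c68 was at 199.99 CPM (74 UMIs), against 88.9 CPM (117 UMIs) in the Tph1 cells. The 5 batch 2 cells, fewer than the 20 asked for elsewhere, held 4 UMIs of it and are too few to compare, also for Ces1b. Ces1b and Ces1c share 25.1% of their 3′ windows.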
